A study of Mus musculus with 6 samples.

Results

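The genes described here code for the molecular chaperones of the cytosol and of the mitochondrial matrix, with their co-chaperones and the heat shock transcription factors. They were taken by gene symbol from a list of 47 names, and all 47 were found among the 25939 genes of the deposited tables. The study compared cultured vascular smooth muscle cells of the mouse aorta given trimethylamine N-oxide (TMAO) for 48 h, 3 libraries, with Control cells, 3 libraries. TMAO is an oxidised amine formed in the liver from trimethylamine of bacterial origin, and in biochemistry it is known as a chemical chaperone, a small solute that favours the folded state of proteins. The comparison asks whether cells exposed to such a solute alter the expression of their own chaperones. The sources used here do not give the TMAO dose, what the Control cells received, the mouse strain, the sex or the number of animals. Nothing says whether the 3 samples of a group came from separate animals or cultures, and p-values therefore measure a spread between samples that may be technical.

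Chaperones bind unfolded stretches of other proteins and release them in cycles driven by ATP. HSP70 proteins take clients from J-domain proteins and give them up with the help of nucleotide exchange factors such as the BAG proteins. HSP90 and the ring-shaped chaperonins act on clients that are further along in folding. When unfolded proteins accumulate, HSF1 is freed from chaperones and binds heat shock elements, inverted repeats of the bases GAA, in front of the inducible chaperone genes. In smooth muscle the small heat shock proteins and BAG3 are known for their work on actin filaments and their anchors.

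The values are FPKM, in which the fragments of a gene are divided by its exon length and by the size of the library, so that levels can be compared between genes per length. Library sizes recovered from these values lay between 14991252 and 16806728 reads. Of 12 smooth muscle markers, Acta2 stood at 476 to 493 FPKM in TMAO and 484 to 489 FPKM in Control libraries. Myh11, Cnn1, Tagln and Mylk, contractile markers of this list, had means below 1 FPKM and were near absent. Tpm2, Myl9, Cald1 and Actg2 averaged 115, 94.7, 78.4 and 15.9 FPKM in TMAO and 115, 99.1, 77.5 and 17.6 FPKM in Control libraries. Smtn, Lmod1 and Des averaged 4.54, 1.97 and 1.53 FPKM in TMAO and 4.39, 2.22 and 1.11 FPKM in Control libraries. The summed level of the list was 788 to 808 FPKM in TMAO and 805 to 807 FPKM in Control libraries. The fibroblast list summed to 503 to 535 FPKM in TMAO and 505 to 545 FPKM in Control libraries, and 7 of its 9 genes exceeded 1 FPKM. Most of this sum was Ly6a, at a mean of 410 FPKM in TMAO and 415 FPKM in Control libraries. The macrophage list of 9 genes summed to 85.5 to 94.4 FPKM in TMAO and 84.8 to 107 FPKM in Control libraries, most of it from Lyz2, while Ptprc averaged 0.0401 FPKM in TMAO and 0.0399 FPKM in Control libraries. The 7 endothelial markers that could be read summed to 12.8 to 13.3 FPKM in TMAO and 15.5 to 16.9 FPKM in Control libraries, nearly all of it Emcn (limma adjusted p = 0.0504), with Pecam1 and Cdh5 near 0. Of 5 RNAs kept in the nucleus, a list read as a sign of RNA quality, the sum was 158 to 227 FPKM in TMAO and 79.1 to 118 FPKM in Control libraries, most of it Malat1. None of these lists had a gene past the threshold used below, and their part in the chaperone values was not tested.

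No chaperone gene passed the test between TMAO and Control. Of the 47 genes, 46 had at least 1 FPKM in at least 3 libraries and were tested, among 11062 genes, with limma on log2(FPKM + 1) and Benjamini-Hochberg adjustment over all tested genes at a threshold of 0.05. The count past the threshold was 0 of 46 chaperone genes, where 20 of all tested genes (0.181%) passed, 8 higher in TMAO (0.0723%) and 12 lower (0.108%), and it was also 0 with voom on recovered reads. The smallest adjusted p among the chaperone genes was 0.207, for Hsp90aa1. An unadjusted p under 0.05 was found for 4 of the 46 (8.70%) with limma, against 1448 (13.1%) of all tested genes. With voom, which could not test Hspa4l for want of whole recovered reads, it was found for 5 chaperone genes and for 1541 of all genes tested. The genes tested with voom were not counted, so these counts have no share beside them and cannot be compared. All TMAO values exceeded all Control values for 3 chaperone genes (Cct2, St13 and Hspa8) and were below them for 4 (Hsp90aa1, Hspa1b, Bag1 and Tcp1), counts that became 1 and 7 with median-ratio size factors. Without that rescaling these genes were together 15.2% of the 46, where 18.7% of all tested genes had groups that did not overlap, 12.4% above and 6.23% below. The shares over all tested genes were not counted with median-ratio size factors, so the counts of 1 and 7 have no such share beside them.

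The differences were small as well as unresolved. The median log2 fold change, TMAO over Control, was -0.01 over the 46 chaperone genes and 0.02 over all tested genes, and the median size without sign was 0.06 and 0.07. A log2 fold change above 0 was found for 20 chaperone genes and below 0 for 26, a split that became 11 and 35 when libraries were scaled by median-ratio size factors. Under that scaling the median log2 fold change was -0.05 over the chaperone genes and -0.01 over all tested genes. The split of signs over all tested genes was not counted under either scaling. Without rescaling, the size without sign was under 0.1 for 37 of the 46 chaperone genes. The 95% interval of the fold change of FPKM + 1 lay within 1.25-fold in both directions, that is within 0.32 on the log2 scale, for 44 of the 46 genes (95.7%) and for 75.5% of all tested genes. This scale understates the fold of low genes, and with a pseudocount of 0.1 the intervals of 41 of the 46 stayed within that bound, those of Dnajb5, Hspa1b, Hspa2, Hspa4l and Hspb2 reaching beyond it, against 56.8% of all tested genes within it. The chaperone genes were measured with a median standard error of 0.06, against 0.08 over all tested genes, and their median level was 22.6 FPKM against 5.97 FPKM. The intervals of Hspa1b and Hspb2 reached further, to -0.55 and -0.47 at their lower ends, and the highest upper end of any chaperone gene was 0.24, for Trap1. These intervals are per gene and not adjusted for the number of genes. Bulk RNA cannot tell fewer cells of a type from less RNA per cell.

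**Figure D1:**
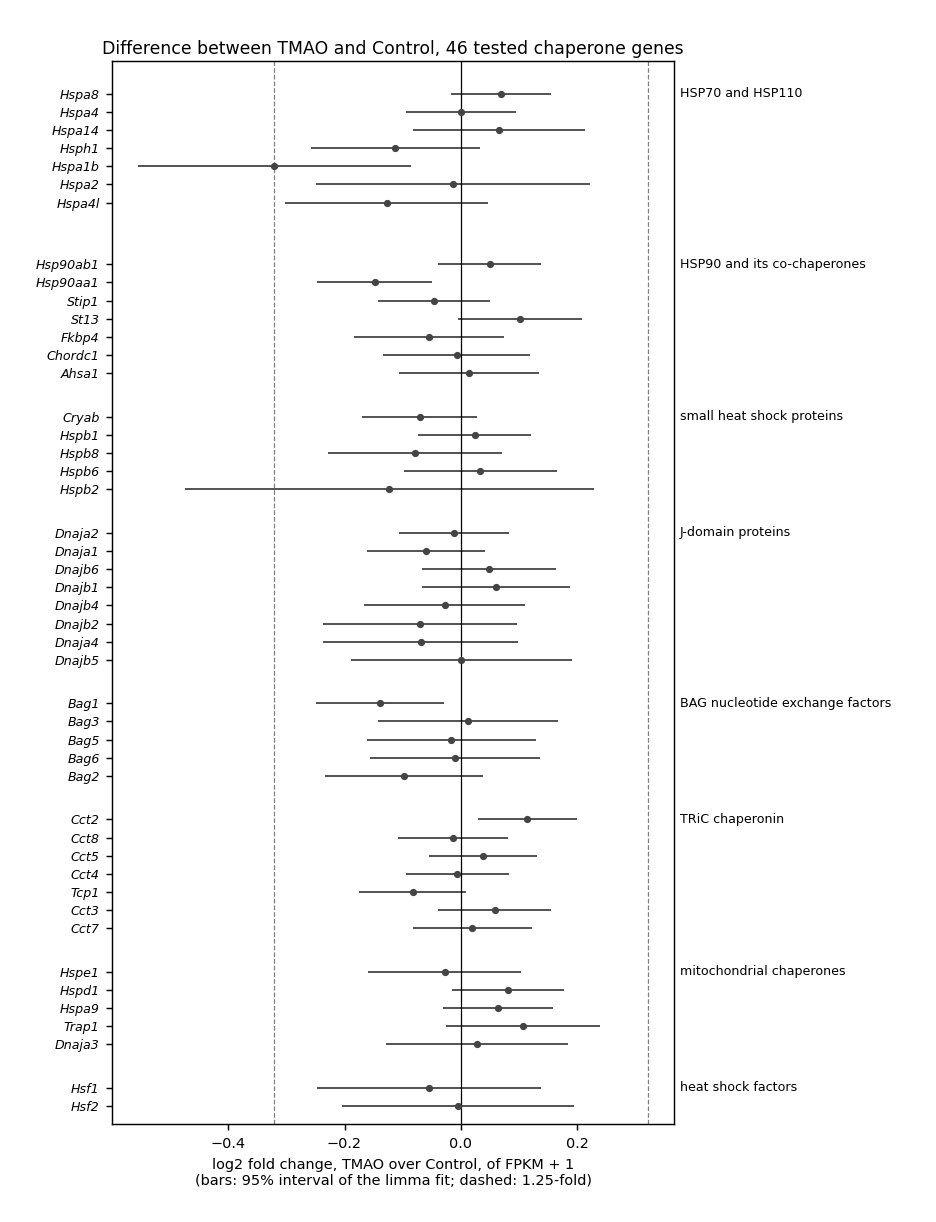
Log2 fold change, TMAO over Control, of FPKM + 1 for the 46 tested chaperone genes by class, with the 95% interval of the limma fit and dashed lines at 1.25-fold. The intervals of 44 genes stay between the dashed lines, and those of Hspa1b and Hspb2 cross the lower one.

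**Figure D2:**
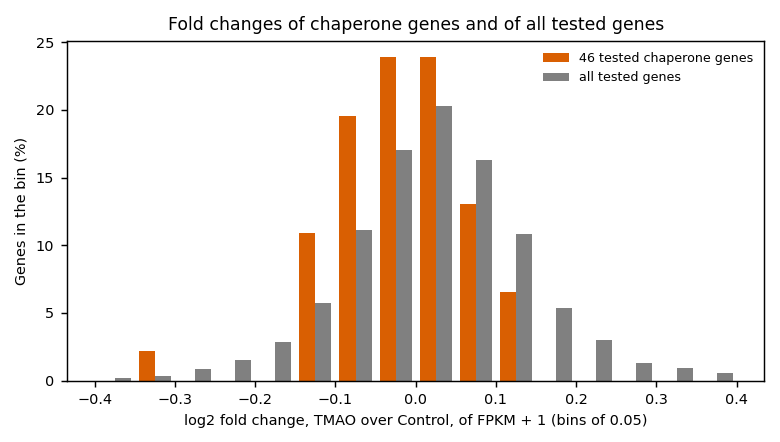
Share of genes, in %, in each bin of 0.05 of the log2 fold change, for the 46 tested chaperone genes and for all tested genes. Both centre near 0, with 1 chaperone gene (Hspa1b) beyond 0.15 in size, and 1.86% of all tested genes lie outside the plotted range.

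The heat shock factors were expressed at low levels that overlapped between the groups. Hsf1, the main activator of the heat shock response (ENSMUSG00000022556, mm10 chromosome 15, 76477422 to 76501913), stood at 3.67, 2.92 and 2.93 FPKM in TMAO and 3.16, 3.49 and 3.32 FPKM in Control libraries. TMAO 1 was the highest library and TMAO 2 and 3 the lowest, and the log2 fold change was -0.05 ± 0.087 (SE; limma adjusted p = 0.839), with -0.14 without TMAO replicate 1 and -0.01 without TMAO replicate 2. Hsf2, a related factor that can pair with HSF1, stood at 1.68 to 2.10 FPKM in TMAO and 1.69 to 2.08 FPKM in Control libraries (log2 fold change -0.01).

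The letters of a heat shock element are shown where they match in front of 4 chaperone genes, so that the levels of these genes can be read beside them. Shown are the 150 bases before the RefSeq start site on GRCm38.p6, and for Hspe1 only the run of repeats, 5′ to 3′ on the strand of the gene, with capitals marking each GAANNTTC or TTCNNGAA, the inverted pairs of a heat shock element.
Hspa1a, chr17:34972157-34972306, minus strand: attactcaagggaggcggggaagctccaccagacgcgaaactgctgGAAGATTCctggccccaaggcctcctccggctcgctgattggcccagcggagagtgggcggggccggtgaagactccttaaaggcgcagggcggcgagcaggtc
Hspa1b, chr17:34959239-34959388, minus strand: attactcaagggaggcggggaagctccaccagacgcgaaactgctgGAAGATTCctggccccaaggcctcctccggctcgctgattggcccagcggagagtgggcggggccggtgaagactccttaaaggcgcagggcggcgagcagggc
Hspe1, chr1:55088059-55088076, plus strand: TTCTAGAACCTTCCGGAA
Hspb1, chr5:135887769-135887918, plus strand: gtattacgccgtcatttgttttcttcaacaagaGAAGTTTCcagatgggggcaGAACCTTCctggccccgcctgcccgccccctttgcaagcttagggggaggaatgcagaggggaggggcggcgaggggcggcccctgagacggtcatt

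The windows of Hspa1a and Hspa1b, neighbours on chromosome 17, matched at 247 of 250 bases (98.8%). The run in front of Hspe1 spans -89 to -72 from its start and holds overlapping pairs of both kinds, and 1 of the RefSeq starts of Hspd1 lies 216 bases from that of Hspe1 on the opposite strand, with the run between them. Each pair is its own reverse complement, so both strands were read, over the 250 bases before each start. At least 1 pair was found in front of 14 of the 38 chaperone genes with a window in the RefSeq table, in 16 of their 53 windows (30.2%), against 12.8% of all 32851 windows. A run of 3 such repeats in alternating orientation, in which 2 pairs overlap, was found for Hspd1, Hspe1 and Dnajb6 and in 0.466% of all windows. Windows that overlap count the same site more than once. The windows of Dnajb6 hold the same run, those of Hsph1 the same pair, and Hspd1 and Hspe1 share a run. The genes shown above were chosen from the 14 with a pair, and no pair was found in the windows of Dnajb1 or Bag3. A match is a description of letters and not a site of binding. The promoters of Hspb2, Cryab, Cct4, Hsf1, Hsp90ab1, Hspa9, Hsp90aa1, Hspa8 and St13 were not analysed here. The 13 tested genes with a pair had a median log2 fold change of -0.03 and a range from -0.32 (Hspa1b) to 0.11 (Cct2), and the 24 tested genes with a window and no pair had a median of -0.01.

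Among the HSP70 genes the constitutive form dominated, and the stress-inducible forms stood at a few FPKM or less. Hspa8, the constitutive HSP70 of the cytosol (ENSMUSG00000015656, chromosome 9, 40800984 to 40810087), stood at 808, 837 and 836 FPKM in TMAO and 783, 786 and 798 FPKM in Control libraries, from 50549 to 57660 reads. All 3 TMAO libraries lay above the Control libraries, by 4.86% of the mean, with a log2 fold change of 0.07 ± 0.039 (SE; limma adjusted p = 0.498), which became 0.03 with median-ratio size factors. Of its 100-base stretches 28.2% also occur in transcripts of 7 other annotated genes, and the counting could split reads between them. The most abundant of those listed, Gm15459, stood at 77.5, 75.0 and 76.2 FPKM in TMAO and 72.9, 69.4 and 74.9 FPKM in Control libraries.

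Hspa1b, which codes for an HSP70 that heat and proteotoxic stress induce (ENSMUSG00000090877, chromosome 17, 34956436 to 34959238), stood at 2.79, 3.20 and 2.57 FPKM in TMAO and 3.75, 4.52 and 3.21 FPKM in Control libraries. The TMAO libraries were all below the Control libraries, although TMAO 2 and Control 3 nearly met. The TMAO mean was 2.85 ± 0.319 FPKM and the Control mean 3.83 ± 0.662 FPKM (SD, n = 3 each), with a log2 fold change of -0.32 ± 0.106 (SE, limma adjusted p = 0.243), the largest among the 46 genes. The log2 fold change became -0.40 with a pseudocount of 0.1 and -0.41 with voom. It rests on 108 to 191 reads per library, and the log2 fold change was between -0.42 and -0.22 when each library was left out in turn, with -0.22 the value without Control replicate 2. The twin gene Hspa1a (ENSMUSG00000091971, chromosome 17, 34969190 to 34972156) codes for a nearly identical protein and was below the filter, so it was not tested. It stood at 0.571, 0.549 and 0.472 FPKM in TMAO and 0.539, 0.470 and 0.722 FPKM in Control libraries, from 21 to 36 reads, and the groups overlapped. Of the 100-base stretches of the twins, 49.9% for Hspa1b and 48.6% for Hspa1a also occur in other genes (each other and Hspa1l), so the split of reads between them is uncertain. The sum of the pair was 3.36, 3.75 and 3.04 FPKM in TMAO and 4.29, 4.99 and 3.93 FPKM in Control libraries. The TMAO sums were all below the Control sums. The level of Hspa8 was 223 to 275 times that sum in TMAO and 157 to 203 times that sum in Control libraries. These ratios follow from Hspa8 lying above and Hspa1b below in TMAO, and they were not tested.

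The other genes of the class had groups that overlapped. Hsph1, an HSP110 that acts as nucleotide exchange factor for HSP70, stood at 9.30, 8.96 and 8.54 FPKM in TMAO and 10.1, 10.1 and 9.01 FPKM in Control libraries. TMAO 1 exceeded Control 3, and the log2 fold change was -0.11 ± 0.066 (SE; limma adjusted p = 0.510). The related exchange factors Hspa4, at a mean of 85.2 FPKM in TMAO and 85.2 FPKM in Control cells, and Hspa4l, at 2.17 FPKM in TMAO and 2.46 FPKM in Control cells, had log2 fold changes of 0.00 and -0.13. Hspa14, a ribosome-associated HSP70, and Hspa2, best known from the testis, had 0.06 and -0.01.

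**Figure D3:**
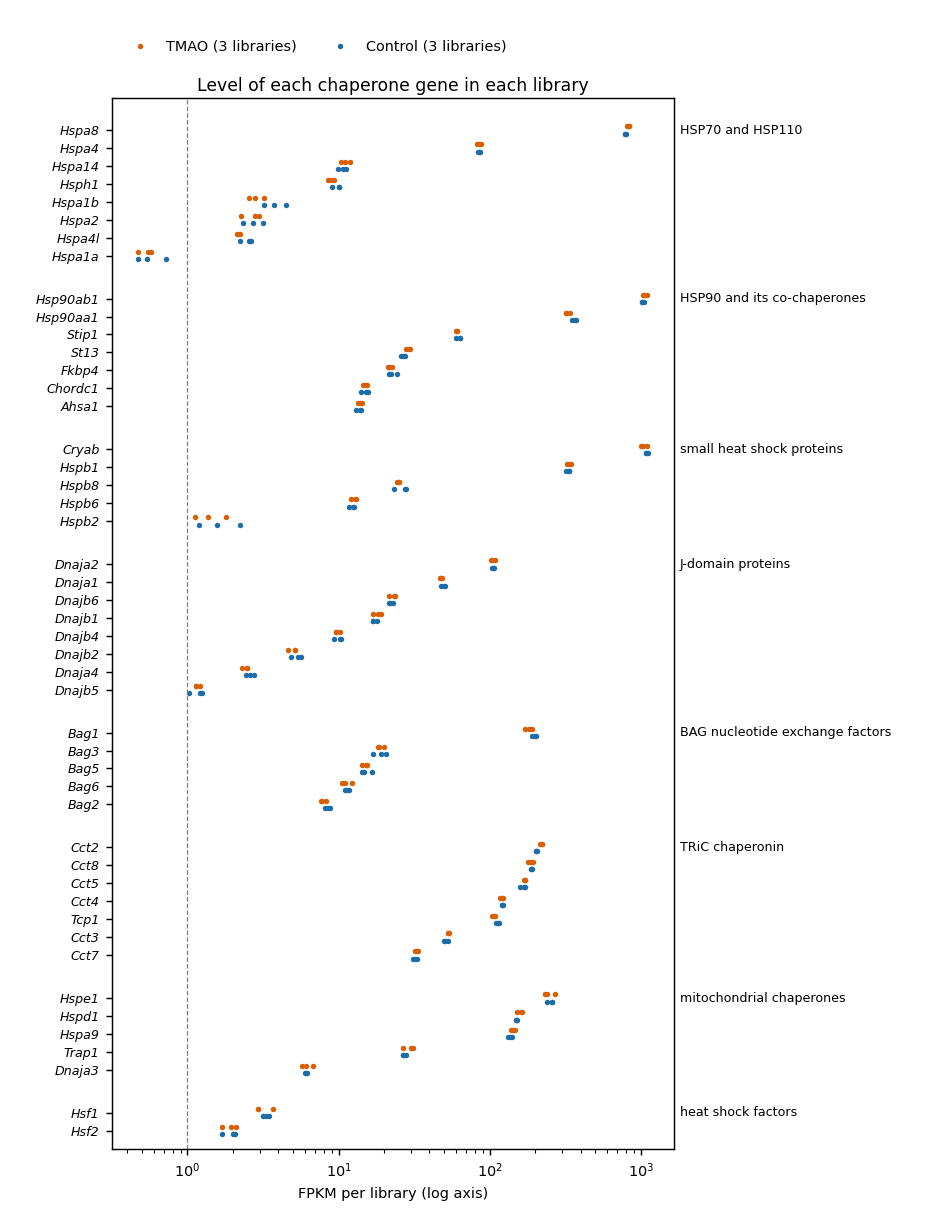
FPKM of each of the 47 chaperone genes in each library on a log axis, by class, with the filter of 1 FPKM dashed. The levels run from 0.470 FPKM for Hspa1a to above 1000 FPKM for Cryab and Hsp90ab1. The TMAO and Control points of most genes lie close together on this axis, and those of low genes such as Hspa1a, Hspa1b and Hspb2 spread more.

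The J-domain genes, which bring clients to HSP70 and start its ATPase, showed no gene with separated groups. Dnaja2, the most abundant (ENSMUSG00000031701, chromosome 8, 85537633 to 85555344), stood at 102, 109 and 104 FPKM in TMAO and 106, 104 and 108 FPKM in Control libraries (log2 fold change -0.01 ± 0.043, SE; limma adjusted p = 0.938). Dnajb1, the classical heat-inducible HSP40 (ENSMUSG00000005483, chromosome 8, 83608193 to 83612653), stood at 19.0, 17.0 and 18.4 FPKM in TMAO and 17.0, 16.9 and 18.0 FPKM in Control libraries. Its groups overlapped, with a log2 fold change of 0.06 ± 0.057 (SE; limma adjusted p = 0.714). The other 6 genes had means over all libraries from 1.16 FPKM (Dnajb5) to 48.6 FPKM (Dnaja1), and the class of 8 had log2 fold changes from -0.07 to 0.06, 3 above 0 and 5 below. Dnaja4 shares 44.1% of its exon bases with Wdr61 on the other strand, and its level is uncertain because the strand setting of the counting is not known.

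Of the BAG genes, whose proteins free clients from HSP70, only Bag1 had groups that did not overlap. Bag1 (ENSMUSG00000028416, chromosome 4, 40936398 to 40948294) stood at 171, 191 and 181 FPKM in TMAO and 201, 204 and 192 FPKM in Control libraries. TMAO 2, the highest of its group, was just below Control 3, the lowest of the other. The TMAO mean differed from the Control mean by -9.16%, with a log2 fold change of -0.14 ± 0.049 (SE; limma adjusted p = 0.275). Bag3, the HSF1 target that steers damaged proteins into autophagy in muscle (ENSMUSG00000030847, chromosome 7, 128523616 to 128546981), stood at 20.1, 18.3 and 18.6 FPKM in TMAO and 17.0, 20.5 and 19.0 FPKM in Control libraries. The groups overlapped throughout, with a log2 fold change of 0.01 ± 0.070 (SE; limma adjusted p = 0.964), a sign that turned negative with median-ratio size factors and with a scale without mitochondrial genome genes. Bag2, Bag5 and Bag6 had log2 fold changes of -0.10, -0.02 and -0.01.

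The HSP90 of the cytosol comes from a pair of genes, of which the stress-inducible one was lower in every TMAO library, without passing the threshold, while the constitutive one overlapped between the groups. Hsp90aa1, the stress-inducible form HSP90 alpha (ENSMUSG00000021270, chromosome 12, 110690605 to 110702728), stood at 322, 319 and 342 FPKM in TMAO and 371, 367 and 352 FPKM in Control libraries, from 20011 to 23254 reads. All 3 TMAO libraries lay below the Control libraries. The TMAO mean was 328 ± 12.3 FPKM and the Control mean 363 ± 9.90 FPKM (SD, n = 3 each), a difference of -9.78%, with a log2 fold change of -0.15 ± 0.044 (SE; limma adjusted p = 0.207). The unadjusted p was 0.00690 and stayed under 0.05 in all 15 alternative settings, with adjusted p-values of 0.0858 with voom and from 0.147 to 0.477 with limma in the other 14, so the gene passed the threshold in none of them. Of its 100-base stretches 38.0% also occur in 3 other annotated genes, and the counting could split reads between them. Of these, Gm12346 stood at 14.6, 14.3 and 14.3 FPKM in TMAO and 17.0, 14.8 and 15.1 FPKM in Control libraries.

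Hsp90ab1, the constitutive form HSP90 beta (ENSMUSG00000023944, chromosome 17, 45567775 to 45573271), was among the most abundant transcripts of these cells. It stood at 1039.6, 1093 and 1059 FPKM in TMAO and 1046, 1022 and 1016 FPKM in Control libraries, with a log2 fold change of 0.05 ± 0.040 (SE; limma adjusted p = 0.659), which became 0.01 with median-ratio size factors. TMAO 1 lay below Control 1, so the groups overlapped. The level of Hsp90ab1 divided by that of Hsp90aa1, which a scale factor per library does not alter, was 3.23, 3.43 and 3.10 in TMAO and 2.82, 2.79 and 2.89 in Control libraries, and these ratios did not overlap. The ratio was chosen with the values known and was not tested.

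Of the co-chaperones, St13 codes for a protein that steadies HSP70 with bound client on its way to HSP90 (ENSMUSG00000022403, chromosome 15, 81363669 to 81400077). It stood at 28.8, 27.9 and 29.6 FPKM in TMAO and 25.9, 27.5 and 26.9 FPKM in Control libraries, with all TMAO libraries above and a log2 fold change of 0.10 ± 0.048 (SE; limma adjusted p = 0.404), which became 0.06 with median-ratio size factors. Stip1, the adaptor between HSP70 and HSP90, averaged 60.7 ± 0.387 FPKM in TMAO and 62.7 ± 2.19 FPKM in Control cells (SD, n = 3 each), with a log2 fold change of -0.05. Fkbp4, a prolyl isomerase on HSP90 complexes, had -0.06, and the HSP90 partners Ahsa1 and Chordc1 had 0.01 and -0.01.

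The small heat shock proteins, which hold unfolded proteins without ATP, were led by Cryab, alpha B-crystallin. Cryab (ENSMUSG00000032060, chromosome 9, 50751325 to 50756636) stood at 1012, 1103 and 1033 FPKM in TMAO and 1088, 1091 and 1124 FPKM in Control libraries, the highest mean of the 47 genes. TMAO 2 lay above Control 1 and 2, so the groups overlapped, and the log2 fold change was -0.07 ± 0.045 (SE; limma adjusted p = 0.549). Its neighbour Hspb2 (ENSMUSG00000038086, chromosome 9, 50751078 to 50752354), on the opposite strand with exons that overlap those of Cryab over 30.2% of the Hspb2 exon bases, stood at 1.81, 1.13 and 1.36 FPKM in TMAO and 2.24, 1.19 and 1.57 FPKM in Control libraries. These values rest on 15 to 28 reads, the widest spread between libraries of 1 group among these genes, and the log2 fold change was -0.12 ± 0.154 (SE; limma adjusted p = 0.790), which became 0.03 without Control replicate 1, -0.25 without Control replicate 2 and -0.19 with a pseudocount of 0.1. Hspb1, a small heat shock protein known for its effect on actin filaments (ENSMUSG00000004951, chromosome 5, 135887919 to 135889563), stood at 323, 344 and 341 FPKM in TMAO and 335, 320.1 and 337 FPKM in Control libraries. Its groups overlapped, with a log2 fold change of 0.02 ± 0.044 (SE; limma adjusted p = 0.871) that became -0.02 with median-ratio size factors. Hspb8, the partner of BAG3, and Hspb6, a smooth muscle protein that is phosphorylated during relaxation, had -0.08 and 0.03. Of the 100-base stretches of Hspb1, 44.0% also occur in Hsp25-ps1, which was listed at no more than 0.106 FPKM in any library.

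The TRiC chaperonin is a double ring of 8 kinds of subunit that folds actin and tubulin, and the RNAs of its subunits stood at unequal levels. Over all 6 libraries the means were 211 FPKM for Cct2, 189 for Cct8, 168 for Cct5, 121 for Cct4, 109.9 for Tcp1, 52.3 for Cct3 and 32.4 for Cct7, and 77.3 FPKM for Cct6a, a subunit that was not on the list of 47. The exon length that FPKM divides by was 6778 bases for Cct7 and 6370 for Cct3, against 2557 for Cct2 in GENCODE M21, and its part in this order was not tested. Cct2 (ENSMUSG00000034024, chromosome 10, 117051001 to 117063814) stood at 216, 221 and 221 FPKM in TMAO and 203, 204 and 201 FPKM in Control libraries. All TMAO libraries lay above, by 8.25% of the mean, with a log2 fold change of 0.11 ± 0.038 (SE; limma adjusted p = 0.249), which became 0.07 with median-ratio size factors. Tcp1, subunit alpha (ENSMUSG00000068039, chromosome 17, 12915701 to 12925067), stood at 104, 107 and 108 FPKM in TMAO and 116, 110.2 and 113 FPKM in Control libraries. There all TMAO libraries lay below, with a difference of the means of -5.62% and a log2 fold change of -0.08 ± 0.041 (SE; limma adjusted p = 0.437).

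The level of Cct2 divided by that of Tcp1 was 2.07, 2.06 and 2.04 in TMAO and 1.75, 1.85 and 1.78 in Control libraries. This pair was chosen after its values were seen and the ratio was not tested. Tcp1 shares 14.2% of its exon bases with Acat3 and Mrpl18 on the other strand. The other 5 subunits of the list had log2 fold changes from -0.01 (Cct8) to 0.06 (Cct3), and the groups overlapped for each.

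In the mitochondrial matrix HSP60 and its lid HSP10 form the chaperonin, HSPA9 is the HSP70, DNAJA3 its J-domain partner and TRAP1 the HSP90. Hspd1, the HSP60 gene (ENSMUSG00000025980, chromosome 1, 55077835 to 55088243), stood at 162, 152 and 163 FPKM in TMAO and 149, 149 and 152 FPKM in Control libraries. TMAO 2 lay below Control 3 by less than 1 FPKM, and the log2 fold change was 0.08 ± 0.044 (SE; limma adjusted p = 0.464). Hspe1, the HSP10 gene read from the same promoter region in the other direction (ENSMUSG00000073676, chromosome 1, 55088132 to 55091307), stood at 232, 269 and 241 FPKM in TMAO and 259, 238 and 258 FPKM in Control libraries. Its groups overlapped, with a log2 fold change of -0.03 ± 0.059 (SE; limma adjusted p = 0.889). The level of Hspe1 divided by that of Hspd1 was 1.43, 1.77 and 1.47 in TMAO and 1.73, 1.60 and 1.70 in Control libraries, again overlapping. Transcripts of 2 other annotated genes hold 23.4% of the 100-base stretches of Hspd1, and the level is uncertain to that extent.

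Hspa9, mitochondrial HSP70 (ENSMUSG00000024359, chromosome 18, 34937414 to 34954357), stood at 143, 139 and 147 FPKM in TMAO and 136, 133 and 141 FPKM in Control libraries, with a log2 fold change of 0.06 ± 0.043 (SE; limma adjusted p = 0.576). Trap1 averaged 29.4 ± 2.28 FPKM in TMAO and 27.2 ± 0.731 FPKM in Control cells, and Dnaja3 6.23 ± 0.533 FPKM in TMAO and 6.08 ± 0.134 FPKM in Control cells (SD, n = 3 each), with log2 fold changes of 0.11 and 0.03. Of the 5 mitochondrial genes 4 were above 0 and 1 below, with a median log2 fold change of 0.06, and none passed the threshold.

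**Figure D4:**
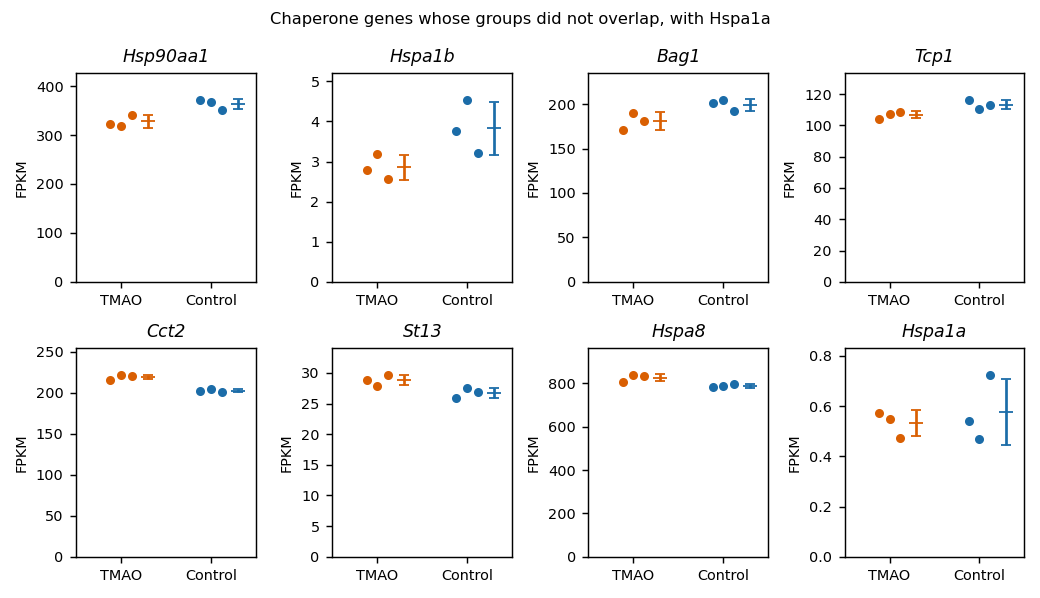
FPKM in each library of the 7 chaperone genes whose groups did not overlap, and of Hspa1a, with the mean and SD of 3 libraries beside the points and axes from 0. The difference of the means, TMAO over Control, is -25.5% for Hspa1b. It lies between -9.78% (Hsp90aa1) and 8.25% (Cct2) for the other genes whose groups did not overlap.

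Summed over the 47 genes, the chaperone level was 5685, 5941 and 5844 FPKM in TMAO and 5846, 5779 and 5859 FPKM in Control libraries, a difference of the means of -0.0839%. By class, the 8 HSP70 and HSP110 genes summed to 920.1, 951 and 951 FPKM in TMAO and 899, 902 and 911 FPKM in Control libraries, with TMAO above in every library. Nearly all of this sum is Hspa8, and the difference of 4.06% became 1.28% with median-ratio size factors. The 5 BAG genes summed to 225, 243 and 234 FPKM in TMAO and 252, 262 and 245 FPKM in Control libraries, with TMAO below in every library, mostly from Bag1. The HSP90, small heat shock, J-domain, TRiC, mitochondrial and heat shock factor classes overlapped between the groups, at differences of the mean from -3.26% to 2.26%; with median-ratio size factors the TRiC and mitochondrial sums became -1.01% and -0.493%. With a library left out, the heat shock factor sum ranged from -9.55% (without TMAO replicate 1) to 1.49% (without TMAO replicate 2), and the small heat shock sum from -5.30% (without TMAO replicate 2) to -1.58% (without TMAO replicate 1). The mitochondrial sum was 0.644% without Control replicate 2 and at most 3.34%, without Control replicate 3. The HSP90 sum lay between -0.680% and 0.953% and the J-domain sum between -2.04% and 0.0700% in these settings, so neither kept a sign. These sums describe the libraries and were not tested.

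**Figure D5:**
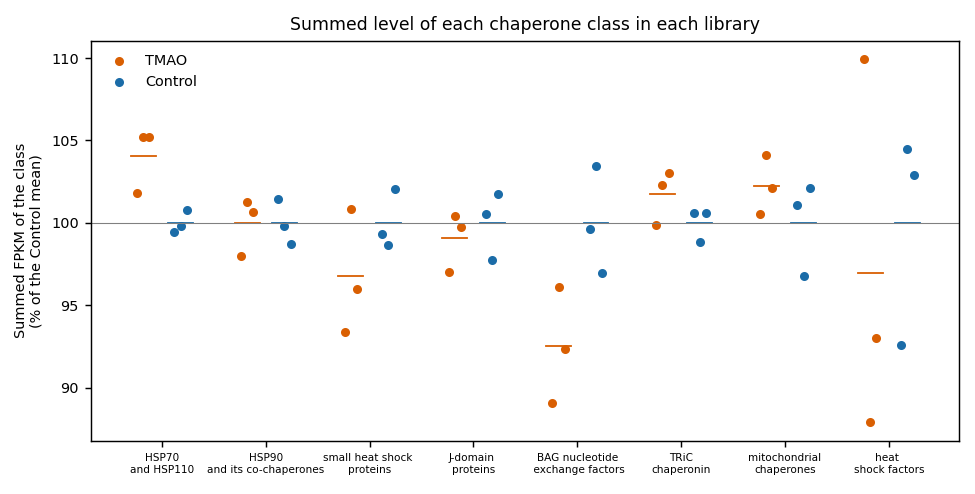
Summed FPKM of each chaperone class in each library as a percentage of the Control mean, with lines at the group means. The groups separate for the HSP70 and HSP110 class, where TMAO averages 4.06% above Control, and for the BAG class, where the difference is -7.51%, and overlap for the other 6 classes.

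A further 81 genes of the same system, listed by function and outside the 47, were read in the same fit. They hold other J-domain proteins of the cytosol and mitochondria, prefoldin, HSP90 co-chaperones such as Cdc37 and Ptges3, tubulin folding cofactors and mitochondrial proteases. Of the 71 tested with limma, 0 passed the threshold. With voom 0 passed as well, but Dnajc7 and Unc45a, without whole recovered reads, were not tested there. With limma 6 (8.45%, against 13.1% of all tested genes) had an unadjusted p under 0.05. With voom 4 did, and 1541 of all genes tested with voom, counts that have no share beside them. The median log2 fold change of these 71 genes was -0.01, against 0.02 over all tested genes, with 31 above 0 and 40 below. The range was -0.21 to 0.17, and the split of signs over all tested genes was not counted. The groups did not overlap for 7 of them (9.86%, against 18.7% of all tested genes), 4 with TMAO above and 3 with TMAO below.

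The 4 of these genes with the smallest p were Nudc, Clpp, Dnajc9 and Tbcb. Nudc, a dynein regulator that works with HSP90, stood at 49.8, 49.6 and 50.8 FPKM in TMAO and 52.2, 54.5 and 55.8 FPKM in Control libraries. Dnajc9, a histone chaperone with a J domain, stood at 28.9, 31.1 and 29.4 FPKM in TMAO and 33.1, 32.3 and 31.8 FPKM in Control libraries. All TMAO values of both genes were lower than the Control values, at -0.11 for Nudc and -0.12 for Dnajc9 on the log2 scale (adjusted p = 0.325 and 0.337 by limma). Clpp, a protease of the mitochondrial matrix, averaged 44.0 ± 3.14 FPKM in TMAO and 39.8 ± 1.02 FPKM in Control libraries (SD, n = 3 each), and TMAO 3 lay below Control 3. Tbcb, a tubulin folding cofactor, stood at 63.3, 71.1 and 73.6 FPKM in TMAO and 60.8, 64.6 and 63.0 FPKM in Control libraries. Both had a log2 fold change of 0.14, and their groups overlapped (limma adjusted p = 0.334 and 0.346).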

How the data were processed

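RNA of 6 libraries, 3 TMAO and 3 Control by title, was extracted with Trizol and made into stranded poly(A) libraries, per the labels' protocols. Per the submitters' processing notes, Trimmomatic, HISAT2, Cufflinks and HTSeq were used with build mm10; the sources used here state no versions, annotation release or strand setting. The authors deposited 1 FPKM table per library, and the header of Control 1 spells the unit PKM.

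Exon lengths of GENCODE M21, on the same build, gave whole reads (within 0.01) in all 6 libraries for 25499 of 25885 matched genes (98.5%), among them 46 of the 47 chaperone genes; Hspa4l did not. Reads and library totals quoted are those recovered in this way, and depth limits precision by counting error at least. limma 3.58.1 in R 4.3.3 was fitted to log2(FPKM + 1), with trended, robust variance, for genes reaching 1 FPKM in 3 or more libraries; this scale understates changes of low genes. Standard errors and 95% intervals come from that fit.

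Chaperone genes and all lists were chosen with earlier results of these data known. Full values were given for genes past the threshold, the 6 smallest p, the highest member of each class, 16 fixed genes and the 2 widest intervals. Shared sequence was the share of 100-base stretches of a gene's transcripts found in another gene of M21. Promoter windows are from RefSeq. Alternatives were 3 scalings, 2 filters, a pseudocount of 0.1, a variance that is not robust, a replicate block, voom and each library left out. Figures were drawn with matplotlib 3.10.9, and tables made with pandas 2.3.3 and numpy 2.4.6 under Python 3.11.15.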

Additional observations from a re-analysis of the deposited data

How the results depend on the processing

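Under all 15 alternatives 0 of the chaperone genes and 0 of the further 81 genes passed the threshold, and the number of chaperone genes with an unadjusted p under 0.05 ranged from 2 to 7. Among all tested genes that number ran from 979, with a mean of at least 5 FPKM, to 1999, with no filter. The filters and voom changed which genes were tested, and shares were not counted for the alternatives. Over all tested genes the count of 20 became 0 with no filter (1999 at an unadjusted p under 0.05), 50 with a mean of at least 5 FPKM and 97 with voom, and it ranged from 11 to 56 with each library left out. It was lowest without Control replicate 3 and highest without TMAO replicate 2, and it was 12 without TMAO replicate 1. Quantile normalization gave 7 higher and 18 lower genes, against 8 and 12 as reported. Without TMAO replicate 3 there were 5 higher and 9 lower. With any other library left out more genes were higher than lower, 42 against 14 without TMAO replicate 2. The replicate block gave 12 higher and 10 lower. In the remaining alternatives where any gene passed, more were lower, so the direction of these calls depended on the setting. The 7 chaperone genes whose groups did not overlap became 10 to 14 with a library left out, as fewer libraries overlap less often, and stayed within 1.5 times that count under the 3 scalings. The share over all tested genes was not counted in these settings.

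Of 282 values of the 19 named and tested genes under alternatives, 274 kept their direction. Of the other 27 tested chaperone genes, 14 took the opposite sign under at least 1 alternative, among them Hspa2, Bag5, Bag6, Hsf2, Dnaja3 and Cct8. With median-ratio size factors Bag3 (0.012) became -0.026 and Hspb1 (0.023) became -0.016, and on a scale without mitochondrial genome genes Bag3 became -0.0013. With a library left out, Bag3 ranged from -0.055 (without Control replicate 1) to 0.072 and was -0.028 without TMAO replicate 1, Hspb2 from -0.25 to 0.026 (without Control replicate 1), Dnaja2 from -0.037 to 0.0088 and Hspe1 from -0.090 to 0.017 (both without TMAO replicate 1). The cause was not tested. With median-ratio size factors the summed class differences became 1.28% for HSP70 and HSP110, -2.71% for HSP90, -3.60% for J-domain, -1.01% for TRiC and -0.493% for mitochondrial genes, and named log2 fold changes became 0.023 for Dnajb1, 0.042 for Hspd1, 0.024 for Hspa9, -0.11 for Cryab, -0.068 for Hspe1 and -0.052 for Dnaja2.

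Whether same-numbered libraries pair is not stated. The correlations of their deviations from the group means were -0.09, -0.10 and 0.06, and TMAO 1 correlated best with Control 2 and TMAO 2 with Control 1. In a group of 3 libraries the deviations of a gene sum to 0, so these correlations cannot decide whether libraries were paired. With the replicate block 22 genes passed, 0 of them chaperone genes. Depth limits Hspa1a and Hspb2, with at most 36 and 28 reads.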
